A study of Mus musculus with 30 samples.

Results

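Mouse macrophages taken from direct co-culture with podoplanin-positive (PDPN+) stromal cells were compared with macrophages cultured alone, by RNA sequencing of polyA RNA. The libraries titled as macrophages from PDPN co-culture and those titled as macrophages in vitro make up 6 of the 30 libraries of the series, 3 in each group. The co-culture group is described in the labels as macrophages with the treatment co, and the alone group as macrophages with no treatment. No genotype, strain, age or culture time is given for either group. All in vitro cells were sorted before lysis, on F4/80 for macrophages or on PDPN for stromal cells, and the PDPN+ cells are labelled as omental (the omentum is a fatty apron in the abdominal cavity). Each of the 3 replicate numbers carries its own batch label (mbb336, mbb339 and mbb340), shared by all groups of the series. Nothing in the labels tells whether the replicates were different animals or only different cultures. Every p value below therefore reflects the spread between these samples, which may be technical.

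Resident macrophages of the peritoneal cavity carry a tissue-specific programme that depends on the transcription factor GATA6. Retinoic acid, the active form of vitamin A, is a known inducer of Gata6 in these cells, and it acts through nuclear receptors that bind pairs of short repeated motifs next to their target genes. Omental stromal cells are known to express Aldh1a2, an enzyme that makes retinoic acid, and the series title pairs macrophages with vitamin A.

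The 6 libraries held 29769558 to 54099085 counts, came from 12678 to 25000 sorted cells and had RNA integrity values between 9.2 and 9.8. Co-culture replicate 3 came from the smallest number of cells. Adgre1, the gene of F4/80, lay at 2699, 3501 and 3513 CPM (the share of a library's counts, scaled to a common total) in the co-culture macrophages, against 3031, 2305 and 2538 CPM in macrophages cultured alone. In batch mbb336 the source names and condition labels of the macrophage and PDPN+ libraries from co-culture are swapped relative to their titles. The titles were followed, and PDPN+ cells of the same co-cultures averaged 47.0 CPM of Adgre1. A list of 16 general macrophage markers summed to 113217 to 186695 CPM in co-culture libraries and 141747 to 189216 CPM in alone libraries, with 0 of 16 members called. Markers of B, T and NK, mast and dendritic cells, of granulocytes and of endothelium and mesothelium were low in both groups: the summed levels of these 7 lists reached at most 343 CPM in co-culture and 236 CPM alone, both for the dendritic cell list, and 0 members were called. The mesothelial list moved with the culture, with a summed level of 0.352 to 25.7 CPM in co-culture and 0 to 1.18 CPM alone. Its 5 tested members were higher in co-culture in batches mbb336 and mbb339 and 1 was in batch mbb340, Wt1 was called without batch mbb340, and their excess over the alone mean was 1.63% to 3.02% of the mean level in PDPN+ cells from co-culture. Their part in the results was not tested. Pdpn itself was at 12.5, 19.8 and 328.6 CPM in co-culture macrophages and at 0.312, 5.76 and 222.7 CPM in macrophages alone, so batch mbb340 stood apart in both groups.

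Of 17774 genes tested with edgeR's quasi-likelihood test, 124 were called at an adjusted p under 0.05, which is 0.698% of the genes tested. Expression was higher in co-culture for 112 of them (0.63%) and lower for 12 (0.0675%). The median log2 fold change over all genes tested was -0.03. An unadjusted p under 0.05 was found for 2282 genes. In a fit with batch as a block, 429 genes were called (2.41%), 342 of them higher (1.92%) and 87 lower (0.489%), and all 124 were among them. Calls were sensitive to single libraries: without alone replicate 2 only 5 genes were called, without co-culture replicate 2 it was 28, without replicate 1 of either group 56, without co-culture replicate 3 it was 177 and without alone replicate 3 it was 268. The 5 genes called in each of these 6 fits were Selp, Mcu, Hcfc2, Acta2 and Meg3. A fit of the 6 compared libraries alone called only Selp (adjusted p = 0.0222), against 124 genes when all 18 macrophage libraries shared one estimate of the spread.

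Because sorted macrophages from co-culture may carry RNA of their stromal partners, genes whose mean level in PDPN+ cells cultured alone exceeded 4 times that in macrophages cultured alone were set apart as a possible carry-over class. This class held 2264 of the genes tested and 62 of the genes called higher (2.74% of the class). Outside it, 62 genes were called (0.4% of 15510 genes tested), 50 of them higher (0.322%) and 12 lower. The class is a flag and not a verdict, since it also takes in genes that both cell types express. In bulk libraries of this kind, a change in the number of cells that express a gene and a change in its RNA per cell cannot be told apart.

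The retinoic acid response list was led by Rarb and Cyp26a1, whose start regions also hold the classical receptor motif. The repeat of 2 half-sites 5 bases apart, a DR5 element, was searched on both strands in the 250 bases before each RefSeq gene start as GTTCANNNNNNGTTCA, GTTCANNNNNNGGTCA, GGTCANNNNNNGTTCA and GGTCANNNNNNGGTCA. It was found in 69 of 32851 promoters (0.21%), which is 66 of 27025 genes (0.244%). Of the 13 response genes that have an entry in the RefSeq promoter table, 2 held it. These genes were chosen as retinoic acid response genes, so nothing is read from that count. The stretch from 40 bases before the repeat to the base before the gene start is shown for both (RefSeq, GRCm38.p6, gene strand, 5′ to 3′), at chr14:16575477-16575568 on the minus strand for Rarb and chr19:37697736-37697807 on the plus strand for Cyp26a1. Capitals mark the repeat, which lies on the gene strand in Rarb and on the opposite strand in Cyp26a1.
Rarb: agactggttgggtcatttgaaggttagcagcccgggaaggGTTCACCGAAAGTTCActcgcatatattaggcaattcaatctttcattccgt
Cyp26a1: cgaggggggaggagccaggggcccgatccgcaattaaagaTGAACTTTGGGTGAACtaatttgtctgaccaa
The repeat ended 37 bases before this RefSeq start of Rarb and 17 bases before that of Cyp26a1. The Rarb start lies inside the GENCODE gene model (chr14:16430839-16819156, minus strand), so it is an internal start, while the counts are for the whole gene. Of the 50 genes called higher outside the carry-over class, 37 had a promoter entry and 0 held the motif in this window.

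Rarb, which encodes a retinoic acid receptor and is itself a target of these receptors, was at 16.8, 25.9 and 16.9 CPM in co-culture macrophages and at 0.867, 1.04 and 2.82 CPM in macrophages alone. All 3 co-culture libraries lay above all 3 alone libraries. The log2 fold change was 3.63 (SE 0.47, adjusted p = 0.00439), and the adjusted p was 0.058 without alone replicate 2, the only one of the 6 left-out libraries that ended the call. Cyp26a1, which encodes an enzyme that breaks down retinoic acid, was at 8.22, 19.4 and 6.14 CPM in co-culture, with 273, 487 and 209 counts. It had 0 counts in every alone library. Against a floor of 3 counts over that group, which covers counting error only, its mean was at least 382.5-fold higher in co-culture (adjusted p = 0.0236). Its adjusted p was 0.0681 without alone replicate 1, 0.124 without alone replicate 2 and 0.061 without co-culture replicate 2.

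Nrip1, a receptor co-regulator known as a retinoic acid target, was at 100.5, 125.9 and 111.9 CPM in co-culture and 47.9, 29.6 and 32.5 CPM alone. The difference was smaller than for Rarb, with a log2 fold change of 1.56 (SE 0.25, adjusted p = 0.0129), and it was lost without alone replicate 2 (0.0847) or co-culture replicate 2 (0.0545). Tgm2, a transglutaminase gene used as a marker of retinoic acid response in myeloid cells, was at 507.3, 662.9 and 1359 CPM in co-culture and at 196.8, 106.1 and 145.8 CPM alone. The libraries did not overlap, yet its adjusted p was 0.0595, and it was 0.0422 with batch as a block. In all, 3 of the 15 response genes tested were higher (Rarb, Cyp26a1 and Nrip1), against 0.63% of all genes tested, and 0 were lower, against 0.0675%. The median log2 fold change of the list was 1.68. Of the 15, 7 lie in the carry-over class, whose median log2 fold change was 0.948, against -0.0882 outside it. The libraries of 7 of the 15 did not overlap and were higher in co-culture, against 8.28% of all genes tested.

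The other response genes were not called. Dhrs3, a retinaldehyde reductase gene commonly raised by retinoic acid, was at 261.1, 304.2 and 183.5 CPM in co-culture and 269.8, 299.7 and 118.5 CPM alone (adjusted p = 0.968). The receptor genes Rara and Rarg had log2 fold changes of -0.05 and 0.10 with adjusted p of 0.971 and 0.924. Crabp2, which encodes a retinoic acid-binding protein, lay in the carry-over class and was not called, at no more than 0.734 CPM in any of the 6 libraries.

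Among genes of retinoid uptake and synthesis, only Aldh1a2 of the 5 tested was called, against 0.698% of all genes tested. It was at 17.98, 13.3 and 14.1 CPM in co-culture macrophages and at 1.84, 0.522 and 1.79 CPM alone, a log2 fold change of 3.42 (SE 0.53, adjusted p = 0.0108; 0.0679 without alone replicate 2). PDPN+ cells of the same co-cultures held 410.3, 321.7 and 177.5 CPM, so the excess in macrophages was 4.54% of the stromal level. The call was lost when stromal counts were subtracted (log2 fold change 2.65, adjusted p = 0.0611). Macrophages given all-trans retinoic acid without stromal cells held 20.1, 35.85 and 38.9 CPM, and ex vivo macrophages 28.4, 10.7 and 37.7 CPM. Macrophages cultured across a membrane from PDPN+ cells held 4.0, 6.12 and 10.25 CPM. How much of the excess in direct co-culture was carried over was not tested.

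The cavity macrophage programme was represented by 26 genes, of which 4 were higher, against 0.63% of all genes tested, 0 were lower and the median log2 fold change was 1.62. The 4 were Selp, Gata6, F5 and P2rx1, and the libraries of 13 of the 26 did not overlap and were higher in co-culture, against 8.28% of all genes tested. Of the 26, Gata6 and Wt1 lie in the carry-over class. Wt1 is among those 13 and is also on the mesothelial list. It was not called (adjusted p = 0.086), and its excess was 2.65% of the stromal level. Selp, the gene of the adhesion receptor P-selectin (GRCm38 chr1:164115264-164150026), was at 311.1, 484 and 275.4 CPM in co-culture macrophages and at 12.4, 9.80 and 15.3 CPM in macrophages alone. Its log2 fold change of 4.78 (SE 0.43) was 27.6-fold, with an adjusted p of 0.000216 and no more than 0.00703 when any 1 of the 6 libraries was left out. PDPN+ cells from co-culture held 4.31, 5.6 and 6.33 CPM, far below the macrophages they were grown with.

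Gata6, the gene of the factor that controls the cavity programme, was at 35.9, 80.9 and 49.2 CPM in co-culture macrophages and at 3.64, 7.41 and 5.35 CPM in macrophages alone. The libraries of the 2 groups did not overlap, with a log2 fold change of 3.28 (SE 0.53, adjusted p = 0.0128). The adjusted p was 0.057, 0.0679 and 0.0515 without alone replicate 1, alone replicate 2 and co-culture replicate 2. Gata6 belongs to the carry-over class, because PDPN+ cells alone held 148.3, 196 and 120.3 CPM. The excess in co-culture macrophages was 76.7% of the level in PDPN+ cells of the same co-cultures as a ratio of means. Within batches it was 28.1%, 114% and 211%, where the PDPN+ libraries held 108.1, 66.0 and 20.8 CPM. These PDPN+ libraries came from 25000, 3730 and 2148 sorted cells, so the 2 higher percentages rest on falling denominators from few cells. The log2 fold change was 3.25 after stromal counts were subtracted (adjusted p = 0.0194).

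F5, the gene of coagulation factor V, was at 166, 361.7 and 218.4 CPM in co-culture and 20.6, 10.1 and 21.97 CPM alone. P2rx1, the gene of an ATP-gated ion channel, was at 45.4, 69.2 and 62.4 CPM in co-culture and 8.88, 2.33 and 1.79 CPM alone. Their log2 fold changes were 3.78 (SE 0.71, adjusted p = 0.0246) and 3.70 (SE 0.69, adjusted p = 0.0238). F5 lost its call without alone replicate 1 (0.0774), alone replicate 2 (0.155) or co-culture replicate 2 (0.0838), and P2rx1 without alone replicate 2 (0.146) or co-culture replicate 2 (0.071). Neither gene exceeded 3.90 CPM in any PDPN+ library of the co-cultures.

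A further 5 genes of the programme, Icam2, Alox15, Fn1, Padi4 and Bhlhe40, were not called in the fit without a block and were called with it, and all 5 were also called without batch mbb340. With the block 9 of the 26 were called higher, against 1.92% of all genes tested. Without batch mbb340 it was 15, against 3.85% of genes tested there. Icam2, an adhesion molecule gene used to define these macrophages, was at 68.7, 127.4 and 83.2 CPM in co-culture and 10.9, 18.7 and 29.3 CPM alone (adjusted p = 0.0595; 0.0155 with the block). Fn1, the fibronectin gene, was at 4857, 12855 and 8264 CPM in co-culture and 385.9, 194.3 and 3153 CPM alone (adjusted p = 0.166; 0.0325 with the block). Alox15, a lipoxygenase gene, was at 3408, 4025 and 377.2 CPM in co-culture and 518.6, 128.1 and 50.6 CPM alone, so that its groups overlapped across batches while each batch alone showed a higher value in co-culture (adjusted p = 0.197; 0.022 with the block).

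Other genes of resident cavity macrophages showed no difference beyond the spread. Timd4, the gene of a phosphatidylserine receptor, was at 84.0, 60.5 and 2.23 CPM in co-culture and 53.6, 10.9 and 2.97 CPM alone (adjusted p = 0.785). Tgfb2, a transforming growth factor gene, was at 12.3, 19.5 and 5.23 CPM in co-culture and 32.0, 19.9 and 6.26 CPM alone (adjusted p = 0.779). For both genes the library of batch mbb340 was the lowest in each group, and the groups overlapped. In macrophages analysed ex vivo, given here as levels only, Timd4 was at 880.5, 295.7 and 676.8 CPM and Tgfb2 at 275.5, 78.4 and 210.3 CPM. Selp and F5 were at 998.1 CPM or more in each ex vivo library, Gata6 at 22.5, 70.8 and 113.6 CPM and Rarb at 77.5, 49.3 and 68.1 CPM.

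**Figure D1:**
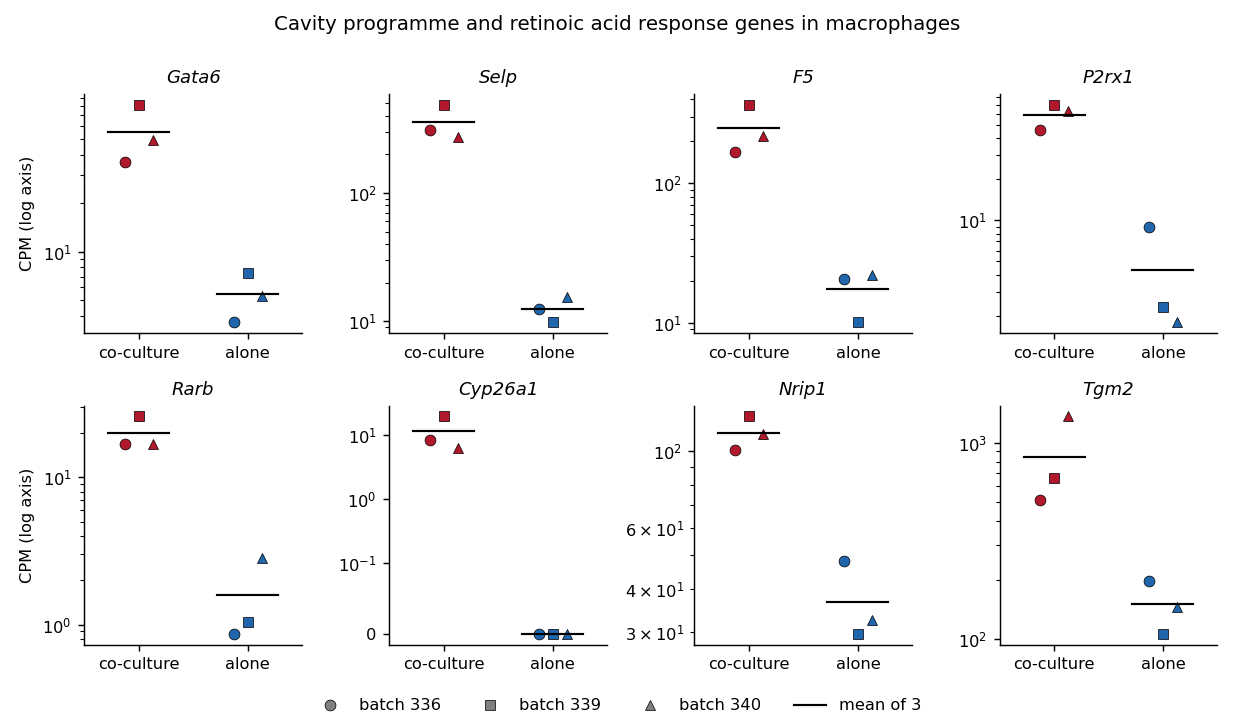
CPM of 8 genes in each of the 3 macrophage libraries from co-culture (left) and the 3 cultured alone (right), on log axes that turn linear below 0.1 CPM for Cyp26a1; symbols mark the batch and lines the mean of 3. The groups do not overlap for any of the 8 genes, all alone libraries of Cyp26a1 are at 0, and Tgm2 is the only one of the 8 that was not called.

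Genes of blood clotting and of adhesion overlap with the cavity programme. Of 19 platelet, coagulation and fibrinolysis genes tested, with a median log2 fold change of 1.19, 5 were higher, against 0.63% of all genes tested, and 0 lower. Selp, F5, P2rx1 and Plat were among them. Plat, the gene of tissue plasminogen activator, lies in the carry-over class, at 10.0, 4.96 and 1.64 CPM in co-culture and at most 0.522 CPM alone. Its excess was 1.42% of the stromal level. The call of Plat (adjusted p = 0.0228) was lost without alone replicates 1 or 2 or co-culture replicates 1 or 2 (0.0552 to 0.0869). After stromal subtraction the log2 fold change of Plat was -6.49 (adjusted p = 0.0225). The shares subtracted, 3.29%, 1.19% and 0.935% of the PDPN+ level in batches mbb336, mbb339 and mbb340, exceeded its excess of 2.19%, 0.996% and 0.667%. The turn in sign therefore follows from the subtraction, and nothing is read from it. F10 and Serpinb2, which encode coagulation factor X and a plasminogen activator inhibitor, were not called (adjusted p = 0.506 and 0.893). Alone replicate 3 held 327.7 and 7004 CPM of them, against at most 39.2 and 201.9 CPM in the other alone libraries.

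Of 26 adhesion genes, 4 were higher and 2 lower, against 0.63% and 0.0675% of all genes tested, and the median log2 fold change was 0.42. Selp, Pecam1 and Cass4 were among those that rose, while Cadm1 and Adgre4 fell. Pecam1, an endothelial and leukocyte adhesion gene, was at 10.2, 23 and 7.17 CPM in co-culture and 1.56, 0.348 and 0.622 CPM alone (log2 fold change 3.94, SE 0.85, adjusted p = 0.0488). Pecam1 lost the call without any 1 library other than co-culture replicate 3, with adjusted p of 0.0681 to 0.237. Cass4, the gene of an adhesion scaffold protein, was at 10.2, 16.6 and 12.8 CPM in co-culture and 1.01, 0.587 and 1.68 CPM alone (log2 fold change 3.56, SE 0.56, adjusted p = 0.0113; 0.0783 without alone replicate 2). The PDPN+ co-culture libraries held at most 4.54 CPM of Pecam1 or Cass4.

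Beyond these lists, the named genes outside the carry-over class with the largest rises were Ifitm6, Gpat3, Tspan18, Fam102a, Fcgr4, Lsp1, Fam20a and Phf11a. Tspan18, Fam102a, Lsp1, Fam20a and Phf11a had log2 fold changes of 3.47, 3.25, 2.69, 2.49 and 2.35 (adjusted p = 0.0228, 0.0133, 0.0253, 0.00908 and 0.0141), and without alone replicate 2 their adjusted p was 0.14, 0.0865, 0.12, 0.0679 and 0.103. Fcgr4, an activating receptor for IgG, was at 208.3, 235.9 and 204.1 CPM in co-culture and 11.2, 36.8 and 38.3 CPM alone (log2 fold change 2.87, SE 0.43, adjusted p = 0.00908). Gpat3, which encodes an enzyme of triglyceride synthesis, was at 20.1, 35.8 and 24.3 CPM in co-culture and 1.49, 1.52 and 3.19 CPM alone (log2 fold change 3.65, SE 0.50, adjusted p = 0.00831). Fcgr4 and Gpat3 lost the call only without alone replicate 2 (adjusted p = 0.0679 for each). Gpat3 was the only called gene of 14 in the lipid handling list, against 0.698% of all genes tested. The median log2 fold change of that list was -0.45. With the block, Gpat3 was called higher and Lipa lower, against 1.92% and 0.489% of all genes tested. Without batch mbb340, 1 was called higher (Gpat3) and 4 lower (Cd36, Lpl, Lipa and Trem2), against 3.85% and 1.31% of genes tested there.

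Ifitm6 and Ifitm3, of a family of interferon-induced membrane proteins, were the called genes among 18 of the interferon list, against 0.698% of all genes tested. Ifitm6 was at 138.9, 204.3 and 35.7 CPM in co-culture and 6.59, 8.91 and 8.38 CPM alone (log2 fold change 3.93, SE 0.65, adjusted p = 0.0133). Ifitm3 was at 590.6, 666.3 and 837.7 CPM in co-culture and 175.1, 302.8 and 351.4 CPM alone (log2 fold change 1.29, SE 0.24, adjusted p = 0.0228). Without alone replicate 1, alone replicate 2 and co-culture replicate 2 the adjusted p was 0.0643, 0.0862 and 0.0545 for Ifitm6 and 0.068, 0.0783 and 0.0605 for Ifitm3, and these 3 fits ended both calls. The classical interferon-stimulated genes of the list were not called: Isg15 was at 3.55, 3.77 and 4.99 CPM in co-culture and 2.22, 4.52 and 3.22 CPM alone, and Ifit1, Ifit3 and Usp18 had log2 fold changes of -0.24, -0.37 and -0.52.

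Of the remaining genes called higher outside the class, 4 were picked after their values were seen, as the smallest adjusted p or as genes of metabolism. Mcu, the pore subunit of the mitochondrial calcium uniporter, was at 61.7, 81.2 and 48.2 CPM in co-culture and 11.9, 9.94 and 15.96 CPM alone (log2 fold change 2.29, SE 0.24, adjusted p = 0.000777). Hcfc2, a transcriptional co-factor gene, was at 36.0, 43.5 and 40.6 CPM in co-culture and 19.3, 12.4 and 18.7 CPM alone (log2 fold change 1.204, SE 0.17, adjusted p = 0.00831). Acly, which encodes the enzyme that supplies acetyl-CoA for lipid synthesis, was at 1660, 2161 and 1003 CPM in co-culture and 471.2, 189 and 478.7 CPM alone (log2 fold change 2.04, SE 0.42, adjusted p = 0.0352). P4ha1, a collagen prolyl hydroxylase subunit gene, was at 339.9, 424.6 and 396.4 CPM in co-culture and 213.4, 156.2 and 188.3 CPM alone (log2 fold change 1.01, SE 0.17, adjusted p = 0.0132). Mcu and Hcfc2 kept their calls without any 1 library. Acly had an adjusted p of 0.0695, 0.166, 0.0985 and 0.135 without alone replicates 1 and 2 and co-culture replicates 1 and 2, and P4ha1 of 0.0783 without alone replicate 2 and 0.0564 without co-culture replicate 2.

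Only 12 genes were lower in co-culture, none of them in the carry-over class, and 9 met the rule for naming. The steepest was Cadm1, a cell adhesion molecule gene (GRCm38 chr9:47530173-47857637), at 4.88, 4.33 and 6.96 CPM in co-culture and 38.5, 74.8 and 27.0 CPM alone. Its log2 fold change was -3.18 (SE 0.54, adjusted p = 0.0141). Adgre4, a member of the F4/80 receptor family, was at 12.3, 14.3 and 15.4 CPM in co-culture and 97.4, 41.5 and 53.8 CPM alone (log2 fold change -2.25, SE 0.42, adjusted p = 0.0238). Sulf2, which encodes an enzyme that trims heparan sulfate, was at 9.09, 8.38 and 13.1 CPM in co-culture and 37.9, 48.3 and 49.7 CPM alone (log2 fold change -2.20, SE 0.33, adjusted p = 0.00968). For each of these 3 genes all co-culture libraries lay below all alone libraries.

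Gstm1, a glutathione transferase gene, was at 172.2, 161.5 and 377 CPM in co-culture and 641.4, 1097 and 625.9 CPM alone (log2 fold change -1.79, SE 0.34, adjusted p = 0.0238). It was the 1 called member of 14 genes of glutathione and oxidative stress defence, against 0.698% of all genes tested. The median log2 fold change of the list was -0.68. The libraries of 3 of the 14 did not overlap and were lower in co-culture, against 5.81% of all genes tested, and 8 of the 14 were lower in every batch, against 16.3% of all genes tested. Cat and Cbr3, which encode catalase and a carbonyl reductase, were called lower with batch as a block (adjusted p = 0.0117 and 0.0424) and not without it (0.0641 and 0.0633). With the block 3 of the 14 were called lower, against 0.489% of all genes tested. Cat was at 639.8, 635.6 and 518.1 CPM in co-culture and 2107, 2054 and 858.5 CPM alone. Slc7a11, the cystine transporter gene of the same list, was at 30.8, 45.7 and 1073 CPM in co-culture and 21.2, 71.0 and 911.4 CPM alone, so it followed batch mbb340 and not the culture.

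The other genes that fell and met the rule were Cib2, Glipr1, Tmem50b, Slc29a1 and Gabarapl1, with log2 fold changes of -1.70, -1.21, -1.08, -1.08 and -0.84 and adjusted p of 0.0451, 0.0287, 0.0269, 0.0292 and 0.0438. Gabarapl1, of the autophagy-related ATG8 family, was at 107.4, 109.9 and 123.7 CPM in co-culture and 188.5, 244.9 and 155.1 CPM alone. Slc29a1, a nucleoside transporter gene, was at 49.3, 40.1 and 49.4 CPM in co-culture and 89.9, 113.2 and 79.8 CPM alone. Without alone replicate 2, or without co-culture replicate 2, 0 of the 12 lower genes were called, and without co-culture replicate 1 the count was 1. The steepest ones had adjusted p of 0.0862 for Cadm1, 0.0679 for Adgre4, 0.0679 for Sulf2 and 0.133 for Gstm1 without alone replicate 2, of 0.0838, 0.0967, 0.0545 and 0.114 without co-culture replicate 2, and Adgre4 also of 0.0735 without alone replicate 1. Without co-culture replicate 1 the adjusted p was 0.0819 for Cadm1, 0.112 for Adgre4 and 0.116 for Gstm1.

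**Figure D2:**
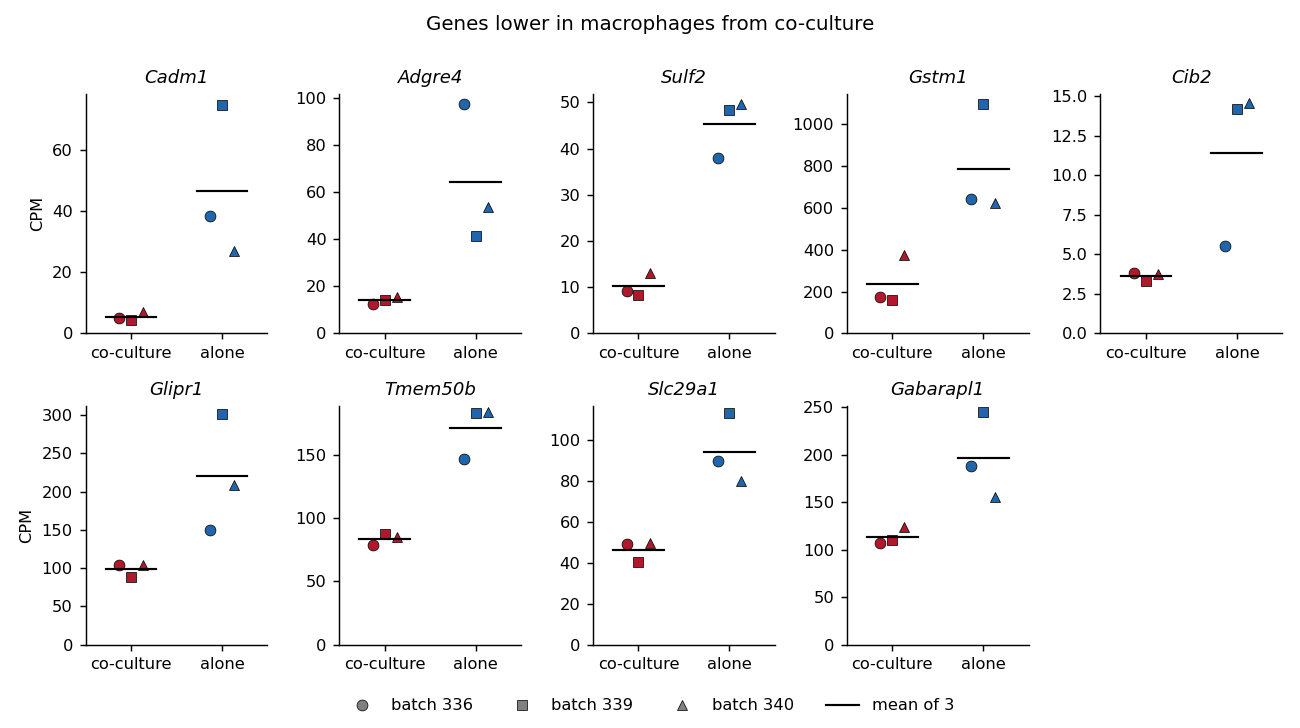
CPM of the 9 named genes that were lower in macrophages from co-culture (left) than in macrophages cultured alone (right), on linear axes from 0; symbols mark the batch and lines the mean of 3. In each panel the 3 co-culture libraries lie below the 3 alone libraries, from 4.88, 4.33 and 6.96 CPM against 27.0 CPM or more for Cadm1 to 123.7 CPM or less against 155.1 CPM or more for Gabarapl1.

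Some groups of genes followed the culture in each batch without passing the test when batch was left out of the fit. Of 17 genes of hypoxia response and glycolysis, 1 was called higher (Hk2, the hexokinase 2 gene), against 0.63% of all genes tested, and 0 lower. In every batch 16 of the 17 were higher in co-culture, against 19.6% of all genes tested. The median difference within batches, as log2 of CPM plus 0.5, was 1.36 in batch mbb336, 1.57 in batch mbb339 and 0.64 in batch mbb340, against 0.05, 0.02 and 0 over all genes tested. With batch as a block 7 were called higher, against 1.92% of genes tested: Hk2, Pfkl, Gapdh, Pgk1, Ldha, Egln3 and Adm. Hk2 was at 71.6, 97.0 and 104.4 CPM in co-culture and 30.6, 29.7 and 48.5 CPM alone (log2 fold change 1.28, SE 0.24, adjusted p = 0.0238), and its adjusted p was 0.0962, 0.134 and 0.0831 without alone replicate 1, alone replicate 2 and co-culture replicate 2. Ldha, the lactate dehydrogenase A gene, was at 2123, 2663 and 3689 CPM in co-culture and 391.8, 593.4 and 1731 CPM alone (adjusted p = 0.203; 0.0175 with the block). Egln3, a hypoxia-induced prolyl hydroxylase gene, was at 40.5, 63.2 and 118.5 CPM in co-culture and 6.04, 5.63 and 19.99 CPM alone (adjusted p = 0.116; 0.00741 with the block). Only Adm of the 17 genes lies in the carry-over class, and the excess of the list members was 29.1% to 840% of the level in PDPN+ cells from co-culture. The class rule itself keeps this percentage high for genes outside the class, so nothing is read from it.

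Cell cycle genes split the batches. In batches mbb336 and mbb339, 23 and 22 of the 23 genes were higher in co-culture, with median differences of 2.55 and 2.32 on the log2 scale of CPM plus 0.5. In batch mbb340 only 3 were higher, with a median of -0.56. Top2a, a topoisomerase gene of dividing cells, was at 38.2, 38.4 and 6.49 CPM in co-culture and 3.85, 1.91 and 20.8 CPM alone. Rrm2, a ribonucleotide reductase subunit gene, was at 31.2, 38.5 and 14.7 CPM in co-culture and 1.49, 1.59 and 21.7 CPM alone. Both were low in co-culture replicate 3 and high in alone replicate 3. Over the 3 batches 0 of the 23 were called (2282 of all genes had an unadjusted p under 0.05). With the block 1 was called higher (Ccnd2), against 1.92% of all genes tested. Without batch mbb340, in a fit with 2 libraries a group, 13 were called higher and 0 lower, against 3.85% and 1.31% of 18049 genes tested there. Ccnd1 and Ccnd2, the cyclin D genes, were higher in all 3 batches, at 49.1, 62.8 and 33.5 CPM of Ccnd1 in co-culture and 4.27, 3.09 and 10.4 CPM alone (adjusted p = 0.184), and at 24.8, 21.3 and 58.2 CPM of Ccnd2 in co-culture and 2.22, 2.24 and 9.34 CPM alone (0.239; 0.0276 with the block). Of the 23 genes, 16 lie in the carry-over class, and the median excess was 17.3% of the stromal level.

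Of 16 inflammatory cytokine and chemokine genes tested, 0 were called by edgeR, with or without the block, and 9 were higher in co-culture in every batch, against 19.6% of all genes tested. Ccl2, a monocyte chemoattractant gene, was at 99.0, 116 and 869.6 CPM in co-culture and 0.902, 2.80 and 457 CPM alone (adjusted p = 0.82). Ccl7, a related chemokine gene, was at 91.9, 97.6 and 474.9 CPM in co-culture and 1.04, 0.891 and 190.4 CPM alone (adjusted p = 0.732). In batches mbb336 and mbb339 both genes lay at 91.9 CPM or more in co-culture and at no more than 2.80 CPM alone, and in batch mbb340 both groups were high. Without batch mbb340, 5 were called higher, against 3.85% of genes tested there.

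**Figure D3:**
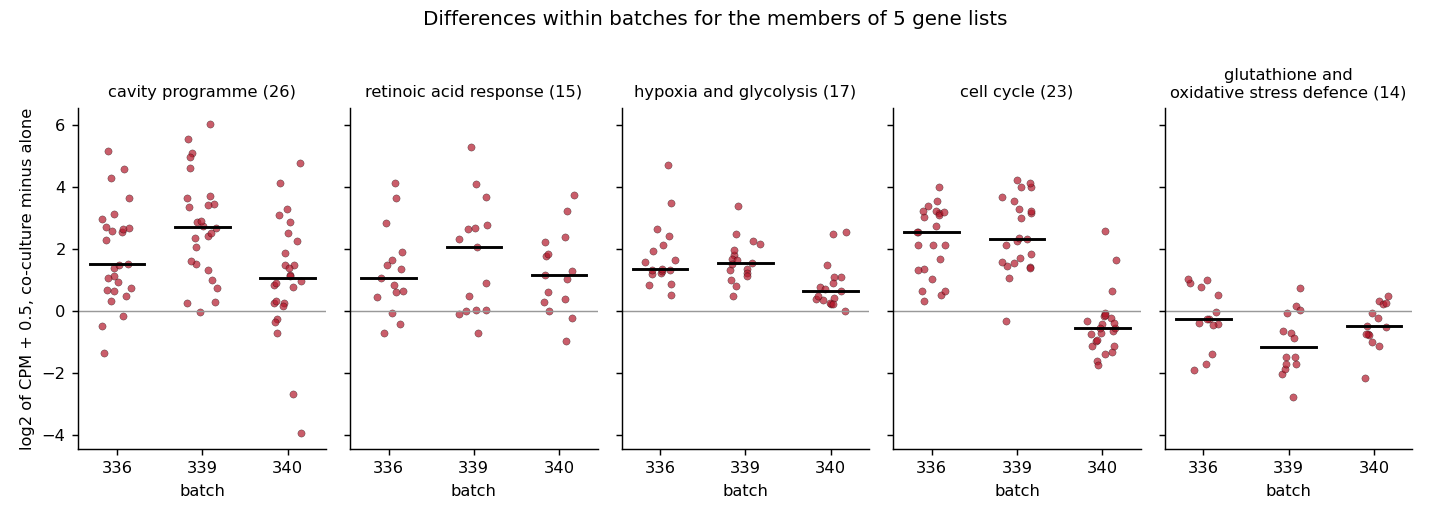
Difference between co-culture and alone macrophages of the same batch, as log2 of CPM plus 0.5, for each tested member of 5 gene lists (number in brackets); black lines are medians. Of the hypoxia and glycolysis genes 16 of 17 lie above 0 in every batch, whereas the median of the cell cycle genes is 2.55 and 2.32 in batches mbb336 and mbb339 and -0.56 in batch mbb340.

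Alternative activation genes gave 0 calls among 11 tested. With the block 2 were called higher (Ccl24 and Il4ra), against 1.92% of all genes tested. Arg1, the arginase gene, was not called, at 10587, 13364 and 16701 CPM in co-culture and 51.0, 137.4 and 4261 CPM alone. The groups did not overlap, yet the alone libraries spanned a wide range and the adjusted p was 0.333 (log2 fold change 3.19, SE 1.35; 0.0552 with the block). PDPN+ cells from co-culture held at most 190.8 CPM of Arg1. Ccl24, the eotaxin-2 gene, was at 170.4, 222.6 and 1856 CPM in co-culture and 29.4, 8.98 and 14.2 CPM alone (log2 fold change 5.36, SE 1.21, adjusted p = 0.0581; 0.0214 with the block).

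The other macrophage lists showed few calls. Of 15 immediate early genes 1 was higher, Ier2, against 0.63% of all genes tested. Ier2 was at 114, 165.1 and 106.9 CPM in co-culture and 41.7, 68.3 and 39.4 CPM alone (adjusted p = 0.0435). Its adjusted p was 0.0679 to 0.179 without any 1 library other than co-culture replicate 3. With the block 3 of the 15 were called higher (Ier2, Egr1 and Klf2), against 1.92% of all genes tested. In the TGF-beta response list 1 of 16 genes was called higher, against 0.63%, and 2 with the block, against 1.92%. The lists of CSF1 and growth factor receptors (16 tested), cholesterol and fatty acid synthesis (21), LXR targets (7), MHC class II (7), complement (12), apoptotic cell uptake and scavenger receptors (16) and matrix metalloproteinases (11) had 0 called members in the edgeR test without a block. With the block, Pdgfra and Pdgfrb, Sc5d, and Timp1 and Timp3 were called higher in the first, second and last of these, against 1.92% of all genes tested. Of these 5, all but Sc5d lie in the carry-over class, Pdgfra and Pdgfrb are also on the fibroblast list, and the excess of Pdgfra, Pdgfrb, Timp1 and Timp3 was 1.17%, 1.84%, 2.79% and 2.46% of the stromal level. After stromal subtraction their adjusted p, in a fit without the block, was 0.842, 0.368, 0.365 and 0.418. Il4ra, the gene of the interleukin 4 receptor chain, was at 438.9, 435.9 and 250.3 CPM in co-culture and 194.6, 93.4 and 174.5 CPM alone (adjusted p = 0.0726; 0.0352 with the block).

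Genes of stromal cells were also higher in the co-culture macrophages, and how much of any result above they account for was not tested. Of 16 contractile and matrix-organising genes, 9 were higher, against 0.63% of all genes tested, and 0 lower, with a median log2 fold change of 4.41. The libraries of 15 did not overlap and were higher in co-culture, against 8.28% of all genes tested. Of 16 fibroblast genes, 3 were higher (Col1a1, Col1a2 and Col5a2), against 0.63% of all genes tested, and 0 lower, with a median of 4.46. With the block, 14 contractile and 8 fibroblast genes were called higher, against 1.92% of all genes tested. Acta2, the smooth muscle actin gene, was at 216.5, 145.9 and 60.9 CPM in co-culture macrophages and 7.11, 6.20 and 6.66 CPM alone (log2 fold change 4.36, SE 0.53, adjusted p = 0.00258), and it kept its call in all 6 fits without 1 library. Col1a1, a collagen chain gene, was at 293.3, 139.8 and 67.4 CPM in co-culture and 7.80, 1.37 and 3.37 CPM alone (log2 fold change 5.27, SE 1.07, adjusted p = 0.0335), and lost its call without any 1 library other than co-culture replicate 3 (0.068 to 0.197). Within the co-culture group both were highest in batch mbb336 and lowest in batch mbb340.

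These levels were small beside those of the stromal cells. The PDPN+ cells of the same co-cultures held 8928, 14773 and 5650 CPM of Col1a1, in libraries from 25000, 3730 and 2148 sorted cells. Over the fibroblast list, the median excess of a co-culture macrophage library over the alone mean was 3.29%, 1.19% and 0.935% of the level in the PDPN+ library of its batch, for batches mbb336, mbb339 and mbb340. As a ratio of group means, the excess of the 16 fibroblast genes ran from 1.1% to 3.1% of the PDPN+ co-culture level, with a median of 1.98%, and that of the contractile list from 1.41% to 5.2%. Single libraries spread more widely than these ratios of means: among the fibroblast genes that could be measured, the excess ran from 1.02% to 5.32% in batch mbb336, from -1.07% to 2.3% in batch mbb339 and from -1.01% to 28.5% in batch mbb340, and up to 12.8% with PDPN+ cells cultured alone as the denominator.

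The genes called higher were then set against the range of the ratios of means, as a description. Of the 62 in the carry-over class, 37 had an excess within the range of the fibroblast list and 25 above it. Col1a1, Col1a2 and Col5a2 are on that list and so lie within its range by construction. Of those 25, 10 had an excess of 38.8% or more: Cyp26a1, Camkk1, Ackr3, Itpr3, Gata6, Rarb, Epha2, Prss35, Cetn4 and Ddah2. The stromal mean, which is the denominator, was only 0.685 CPM for Cyp26a1, 4.25 for Camkk1 and 5.71 for Cetn4. It was 6.29 CPM for Prss35, 7 for Ackr3 and 7.38 for Itpr3, so the percentages of these genes rest on low levels. For Gata6, Rarb, Epha2 and Ddah2 it was 65, 24.9, 21.2 and 42.5 CPM. The next were Pdgfrl at 10.2% and Aldh18a1 at 8.27%. Those of the 25 from C1qtnf7 at 4.87% down to Ddr2 at 3.12% lay within the contractile list's range of 1.41% to 5.2%. Acta2, Tagln and Tpm2 are among them and are on that list. Ackr3, an atypical chemokine receptor gene, was at 5.33, 15.3 and 50.2 CPM in co-culture and 0.173, 0.413 and 0 CPM alone (log2 fold change 6.71, SE 1.30, adjusted p = 0.0269). Camkk1, a calcium/calmodulin-dependent kinase kinase gene, was at 15.2, 19.2 and 27.7 CPM in co-culture and 0.902, 0 and 0 CPM alone (log2 fold change 6.09, SE 1.18, adjusted p = 0.0269). The call of Ackr3 was lost without alone replicates 1 or 2 (0.11 and 0.111) or co-culture replicate 2 (0.0564), and that of Camkk1 without alone replicate 2 (0.111) or co-culture replicates 1 or 2 (0.0596 and 0.0703). Their excess was 334% and 479% of the stromal level. The 50 genes called higher outside the class had an excess of 12.1% or more, which the class rule itself keeps high, so nothing is read from it.

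**Figure D4:**
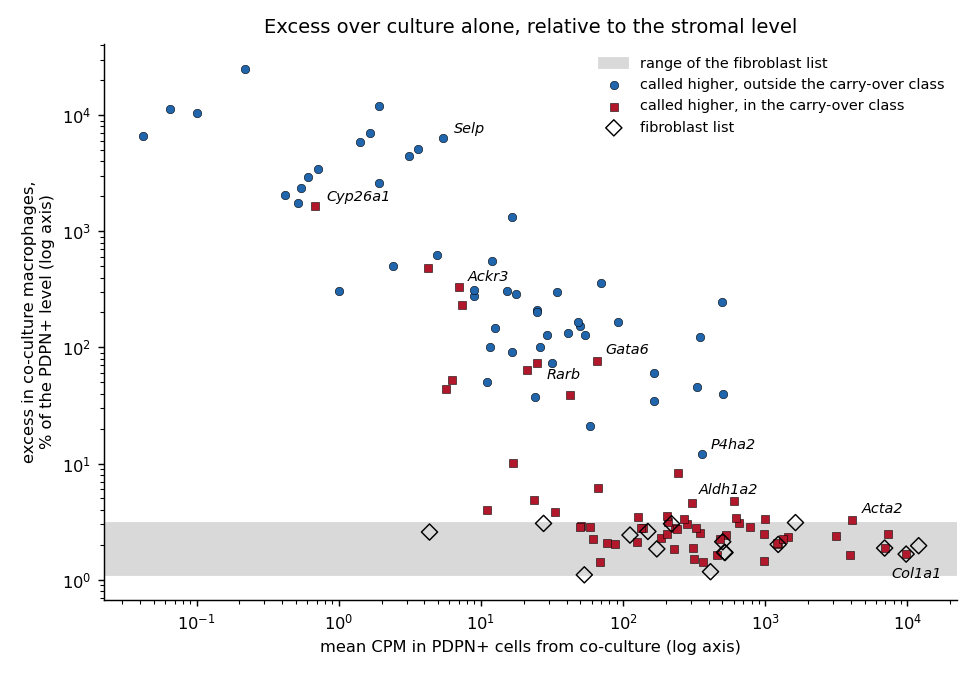
Excess of the mean CPM in co-culture macrophages over macrophages alone, as a percentage of the mean in PDPN+ cells of the same co-cultures, against that stromal mean, which is also the denominator (both log axes). Blue points are the 50 genes called higher outside the carry-over class and red squares the 62 in it. Open diamonds are the fibroblast list and the grey band its range of 1.1% to 3.1%. Gata6 and Rarb lie far above the band at 76.7% and 73.6%. Most other red squares lie in or near it, Col1a1 by construction since it is on the fibroblast list.

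Stromal counts were also subtracted from each co-culture macrophage library, at its own fibroblast share. Of the 124 genes, 68 were still called: 43 of the 50 higher outside the class, 16 of the 62 in it and 9 of the 12 lower. Gata6, Rarb, Cyp26a1, Ackr3 and Camkk1 were among those still called. Col1a1 was not (adjusted p = 0.973), but it is on the fibroblast list that set the share, so nothing is read from its loss. Acta2 was still called, with a log2 fold change of 3.48 (adjusted p = 0.0194) against 4.36 before.

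Direct co-culture was next compared with culture across a transwell membrane, in which the macrophages share medium with PDPN+ cells. Only 7 genes were called (0.0394% of genes tested; 794 or 4.47% had an unadjusted p under 0.05), all higher in direct co-culture: Acta2, Mfap5, Tagln, Meg3, Hspb1, Myl9 and Des. All 7 lie in the carry-over class, and their excess over alone was 1.5% to 4.74% of the stromal level. Tagln, the transgelin gene of contractile cells, was at 47.7, 38.3 and 17.3 CPM in direct co-culture, 2.03, 0.316 and 1.51 CPM in transwell culture and 2.36, 1.43 and 1.43 CPM alone (log2 fold change against transwell 4.71, SE 0.65, adjusted p = 0.0165). Each of the 7 lost its call in at least 2 of the 6 fits without 1 library, with adjusted p up to 0.0884 for Acta2 and 0.367 for Des, and with batch as a block 33 genes were called.

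The retinoic acid and cavity genes were not called between direct co-culture and transwell culture. Selp was at 311.1, 484 and 275.4 CPM in direct co-culture and 569.3, 298 and 238.6 CPM in transwell culture, a log2 difference of -0.07 (SE 0.37, adjusted p = 1). Gata6 was at 35.9, 80.9 and 49.2 CPM in direct co-culture and 27.6, 42.3 and 41.1 CPM in transwell culture (log2 0.57, SE 0.48, adjusted p = 1), and Rarb differed by 0.41 (SE 0.42, adjusted p = 1). Cyp26a1 was at 8.22, 19.4 and 6.14 CPM in direct co-culture and 5.11, 0.0789 and 0.387 CPM in transwell culture (log2 2.53, SE 1.01, adjusted p = 0.929). A p that misses the threshold does not show equal levels.

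Against macrophages given ATRA (all-trans retinoic acid) at 1 uM, 10 genes were called (0.0563%; 1321 or 7.43% had an unadjusted p under 0.05), 9 higher in co-culture (0.0506%) and 1 lower (0.00563%). This comparison and the one with transwell culture share the co-culture libraries. Of the 9 higher, 7 lie in the carry-over class, and the other two were Havcr2 and Hyal1. Havcr2, the gene of the TIM-3 receptor, was at 19.1, 24.7 and 12.9 CPM in co-culture, 2.55, 0.735 and 1.11 CPM with ATRA and 8.77, 8.11 and 14.1 CPM alone (log2 fold change against ATRA 3.64, SE 0.50, adjusted p = 0.0174). Adgre4 was lower in co-culture than with ATRA, at 12.3, 14.3 and 15.4 CPM in co-culture, 116.4, 68.2 and 72.8 CPM with ATRA and 97.4, 41.5 and 53.8 CPM alone (log2 fold change -2.65, SE 0.43, adjusted p = 0.0444). Each call was lost in 2 or more of the 6 fits without 1 library, with adjusted p up to 0.111 for Havcr2, 0.247 for Adgre4 and 0.425 for Hyal1, which lost its call in all 6, and 35 genes were called with the block.

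Retinoic acid target genes stood side by side as follows. Cyp26a1 was at 8.22, 19.4 and 6.14 CPM in co-culture and at 204.5, 380.1 and 86.7 CPM with ATRA, a log2 difference of -4.36 (SE 1.07) whose adjusted p of 0.206 missed the threshold although the libraries did not overlap. Nrip1 was at 100.5, 125.9 and 111.9 CPM in co-culture and 236.2, 329.5 and 182.2 CPM with ATRA (log2 -1.18, SE 0.25, adjusted p = 0.131). Rarb, Gata6 and Selp differed by -0.27 (SE 0.41), -0.49 (SE 0.48) and -0.24 (SE 0.37) on the log2 scale, with adjusted p of 0.984, 0.952 and 0.984. Ifitm3 was at 590.6, 666.3 and 837.7 CPM in co-culture and 312.9, 265.7 and 379.2 CPM with ATRA (log2 1.11, SE 0.24, adjusted p = 0.131).

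**Figure D5:**
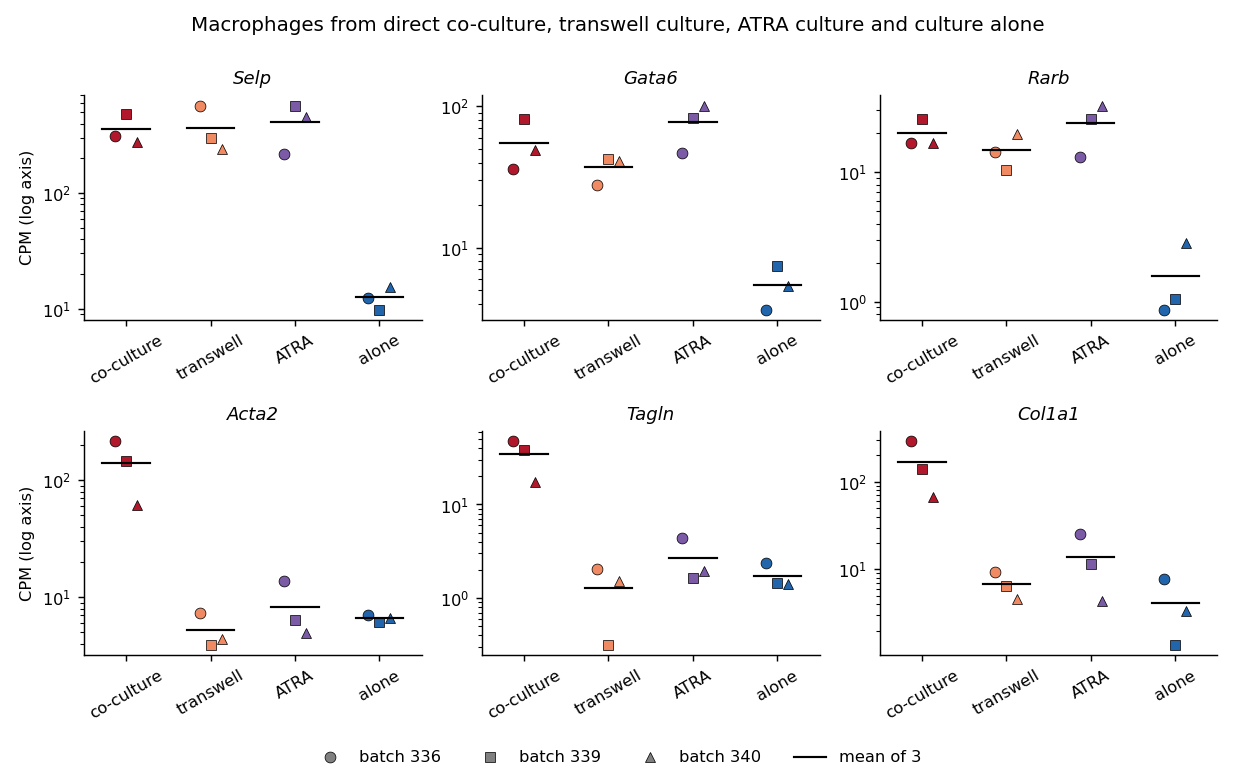
CPM (log axes) of 6 genes in macrophages from direct co-culture, transwell culture, ATRA culture and culture alone, 3 libraries each; symbols mark the batch and lines the mean of 3. For Selp, Gata6 and Rarb direct co-culture overlaps with transwell culture and with ATRA and lies above culture alone, whereas Acta2, Tagln and Col1a1 are high in direct co-culture and at 25.5 CPM or less in each library of the other groups.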

How the data were processed

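Gene names, lists, members and tests were chosen with earlier results of these data known. Each deposited table holds a raw count of reads with a unique alignment for each of 50764 gene models, per the file headers. An RPKM adjusted by size factor, made by the authors, was deposited beside it and was not used for results. The submitters' processing notes name GSNAP and GRCm38; its version, the annotation and the strand setting were not stated in the labels or headers, so overlapping, antisense and near-identical genes (such as Phf11a and Phf11b) are uncertain. Identifiers without a symbol (192) held 0.0358% of counts. Coordinates come from GENCODE on GRCm38, counted from 1, and promoter sequences from RefSeq (GRCm38.p6).

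Counts of the 18 macrophage libraries were fitted together by group with edgeR 4.0.16 (R 4.3.3, limma 3.58.1): TMM scaling, the default low count filter by group, quasi-likelihood test and Benjamini-Hochberg adjustment over the 17774 genes tested. The procedure was tested on simulated data. The common biological coefficient of variation was 0.499. Calls were made at adjusted p under 0.05; SE is the log2 fold change divided by the square root of F. CPM levels are scaled by TMM over all 30 libraries. No pair of replicates was a duplicate (lowest chi-square per degree of freedom 49.0). Intervals for counts of 0 use a floor of 3 counts.

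The labels give the same batch to equal replicate numbers in every group, so the numbers pair libraries by a shared batch. Deviations from group means correlated over genes with a median r of 0.186 between same-batch macrophage libraries (28 of 45 pairs over 0.1), and with 0.318, 0.0366 and 0.392 between the co-culture and alone libraries of batches mbb336, mbb339 and mbb340. The block fit is given for many of the genes and lists whose calls it changed, not for all.

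Genes named are, among called genes whose higher group averaged 10 CPM or more, with no overlap of libraries and a proper symbol, the 14 largest rises outside the carry-over class, the 8 largest in it and the 12 largest falls, plus a set of genes of prior interest and up to 4 called members of each of 31 lists; others are marked as picked after their values were seen. Some genes that count in the lists are not reported here by name. Alternatives tried were the block, DESeq2 1.42.0, other size factors, 2 other low count filters, the 6 libraries only, batch mbb340 or each library left out, stromal subtraction and other class rules.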

Additional observations from a re-analysis of the deposited data

How the results depend on the processing

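Of 45 named genes called and 43 not called, 961 of 1213 recomputed values kept direction and side of the threshold, 194 lost the call, 48 gained it and 10 changed sign. The 124 genes called became 429 with batch as a block, 690 with DESeq2, 930 without batch mbb340, 1 with the 6 libraries only, 69 after stromal subtraction and 5 to 268 without 1 library each. The 62 outside the carry-over class became 258, 394, 594, 1 and 53 under these settings and 3 to 188 without 1 library. The 33 called list members became 68, 78, 110, 1 and 21, and 2 to 43 without 1 library. The 7 calls against transwell culture became 33 with the block and 152 with DESeq2, and the 10 against ATRA became 35 and 229; without 1 library both ran from 0 to 14. The block ended none of the 124 calls. Log2 fold changes that turned were Plat (-6.49), Col1a2 (-0.44) and Kdr (-1.002) after subtraction, which removes stromal counts by construction, and, over the fits without 1 library each, Pdpn (-2.22 to 5.2), Csf1r (-0.84 to 0.27), Camp (-0.92 to 0.96, with 0.06 without co-culture replicate 1) and S100a8 (-0.78 to 1.62, with -0.47 and -0.21 without alone replicates 1 and 2); the cause was not tested. Genes of few counts, such as Cyp26a1 alone, have no reliable fold at this depth.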
